A study of Mus musculus with 12 samples.

Results

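The wild-type transcriptome of female mouse germ cells at stage E14.5 is described from 3 RNA sequencing libraries, WT1, WT2 and WT3. They were taken by their name, as the libraries labelled WT, and are 3 of the 12 libraries of the series, which holds 4 groups of 3. The other groups carry Tet1 mutations (a catalytically dead form, HxD; a form described as stalling at 5-hydroxymethylcytosine, V; and a knockout, KO) and enter here only where a normalization factor or a spread is given beside that of WT. The WT embryos had no Tet1 mutation, and in all 4 groups the germ cells were isolated by sorting on an Oct4-GFP reporter, which labels cells that express the pluripotency gene Pou5f1 (Oct4). RNA came from 5000 cells per library, mRNA was taken on oligo d(T) beads, and no strain, litter or embryo is named, so the spread between the 3 libraries may be partly technical. The libraries held 28323877, 20557016 and 24788687 counts in WT1, WT2 and WT3. Levels are CPM, counts relative to library size after TMM scaling, as mean ± SD over n = 3 libraries, and levels of different genes are compared only as CPM per kb of exon. With 1 group and no contrast, no test was made and no p-value is given.

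Primordial germ cells are the embryonic precursors of eggs and sperm. In the fetal ovary they stop dividing after a period of proliferation and enter meiosis: retinoic acid and BMP signals act on competent cells, STRA8 and its partner MEIOSIN switch on meiotic genes, and the chromosomes acquire a proteinaceous axis and then a synaptonemal complex that holds homologues together while DNA breaks are repaired. The same cells lower their pluripotency genes over this period, and they have passed through a genome-wide loss of DNA methylation. Entry into meiosis does not occur at the same moment in all cells of an ovary, so a sorted population at this stage is a mixture of mitotic and meiotic cells. In such bulk samples, fewer cells of a kind and less RNA per cell cannot be told apart.

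The germ cell label was checked against 5 markers, all of which were abundant. Dazl, an RNA-binding protein that licenses germ cells for sexual development, was at 1923, 1666 and 1207 CPM in WT1, WT2 and WT3 (1598 ± 363 CPM, n = 3). Ddx4, the germ cell RNA helicase also called Vasa, was at 714, 610.2 and 663 CPM in the same order (662 ± 51.9 CPM, n = 3). Pou5f1, whose promoter or enhancer drives the sorting reporter, was at 318, 204 and 223 CPM (248 ± 61.2 CPM, n = 3). These 3 genes were high in every library, with the highest library at most 1.59 times the lowest. Stra8, which drives meiotic entry, was at 977, 423 and 247 CPM (549 ± 381 CPM, n = 3), and the synaptonemal complex gene Sycp3 was at 183, 58.0 and 40.5 CPM (93.7 ± 77.5 CPM, n = 3). Both were highest in WT1 and lowest in WT3, and without WT1 their means were 335 and 49.3 CPM. Per kb of exon the 5 levels were 524 for Dazl, 305 for Stra8, 219.7 for Ddx4, 182 for Pou5f1 and 74.2 for Sycp3, all above the upper quartile of detected protein-coding genes (28.9 CPM per kb). Without WT1, Stra8 at 186 CPM per kb came below Ddx4 at 211 CPM per kb.

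The female label was checked as well. Of 8 Y-linked genes, none had a count in WT1 or WT2, where a count of 0 allows up to 0.103 and 0.141 CPM (3 counts, counting error only). WT3 held 227 counts of Eif2s3y, 49 of Ddx3y and 1 of Uty, together 11.0 CPM, and 0 of Kdm5d, Usp9y, Zfy1, Zfy2 and Sry. WT3 thus stood apart from its label at a low level, and for the gene classes described by their value in WT3, WT1 and WT2 are also compared without it; whether male cells were present was not tested. In the 9 mutant libraries these 8 genes summed to between 0 and 62 counts.

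A count was present for 15036, 15150 and 14332 genes in WT1, WT2 and WT3, of 35976 listed. At 1 CPM or more, 11454 genes were detected in all 3 libraries, 1614 in exactly 2 and 2631 in exactly 1. A mean of at least 10 CPM was reached by 9268 genes and one of at least 1000 CPM by 56. Protein-coding genes made up 10574 of those detected in all 3 libraries, which is 51.8% of the 20415 listed, and took 95.9%, 96.1% and 96.0% of the counts. Of 10037 long non-coding RNA genes, 304 were detected in all 3 libraries. The 100 most counted genes took 15.1%, 14.03% and 14.3% of the counts. Mitochondrially encoded genes took 0.836%, 1.34% and 1.02%, with 4 of 13 (COX2, COX3, ATP6 and ATP8) listed at 0 in all 3 libraries. The 77 ribosomal protein genes took 7.21%, 5.10% and 5.24%, highest in WT1.

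Over 10517 detected protein-coding genes with a known exon length, the median level was 11.9 CPM per kb, with quartiles of 4.61 and 28.9. Among nuclear genes other than those of ribosomal proteins, the most abundant per kb were the translation elongation factor Eef1a1 (2459), the chaperone Hsp90ab1 (2011), the ribosome-bound scaffold Rack1 (1472) and the elongation factor Eef2 (1195). They were joined at the top by Mir6236, a microRNA gene of 123 bases at 2640.2. That value rests on 325 CPM over a short length. Which RNA its reads came from was not tested in these libraries of oligo d(T)-selected mRNA. Of the 15 highest, 4 act in mitochondrial respiration: the ATP synthase subunits Atp5b (1109), Atp5e (1023) and Atp5g3 (662) and the cytochrome oxidase subunit Cox4i1 (1106). Npm1, a nucleolar chaperone, was at 1086, the X-linked homeobox gene Rhox5 at 996, the RNA-binding protein gene Hnrnpa2b1 at 809, the antioxidant enzyme gene Sod1 at 743, the tubulin Tubb5 at 705 and the chaperonin subunit Cct2 at 702. Rhox5 was the only homeobox gene of these 15, at 716, 596 and 579.7 CPM in WT1, WT2 and WT3. The order among them is not resolved where the spread is wide: Atp5e ranged from 295 to 683 CPM and Sod1 from 359 to 664, both highest in WT1, while Hnrnpa2b1 stayed between 1941 and 1992 CPM.

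**Figure D1:**
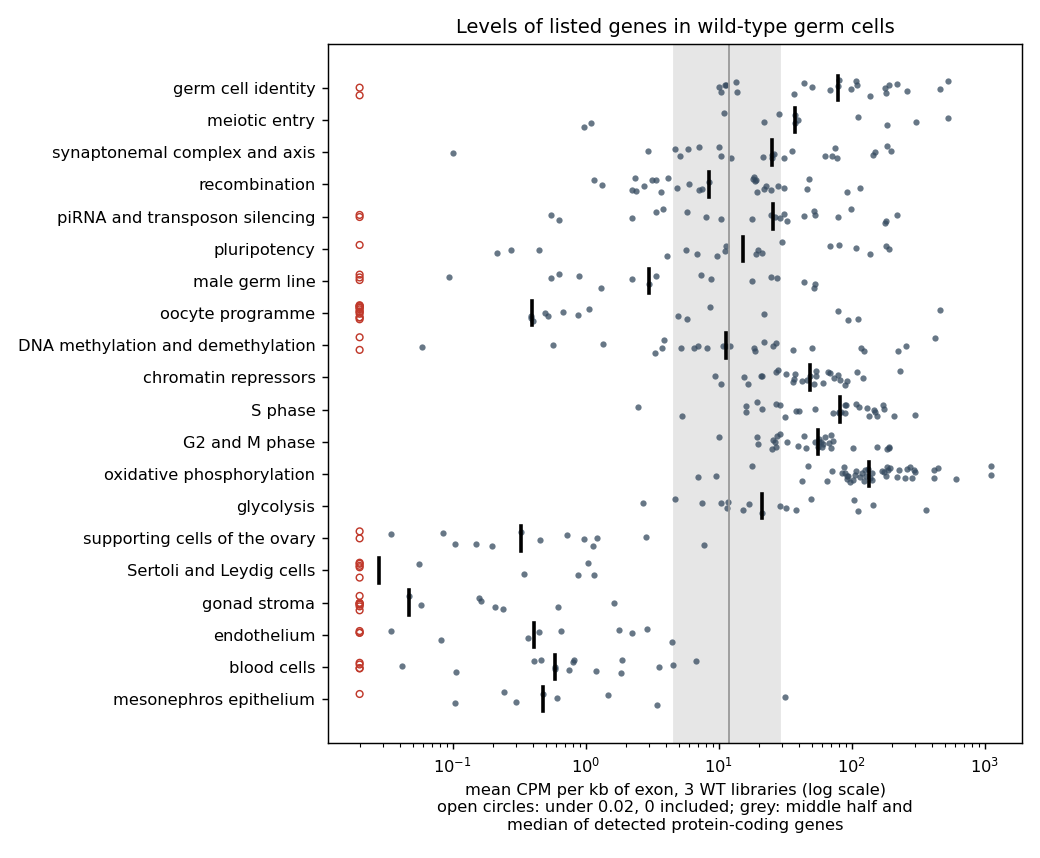
Level of each member of 20 gene lists (1 dot per gene) as mean CPM per kb of exon over the 3 WT libraries, on a log axis; black bars are list medians, the grey band spans the lower and upper quartile (4.61 and 28.9) and the grey line the median (11.9) of detected protein-coding genes. Genes of germ cell identity and of the cell cycle lie mostly at or above the band, oocyte genes and the markers of other cell types mostly below it.

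Genes of germ cell identity had the highest median level of the germ-line lists. Of 25 listed members, 23 reached 1 CPM in all 3 libraries, with a median of 76.3 ± 14.6 CPM per kb (SD over the libraries' medians). After Dazl and Ddx4, the members with the most counts were Lin28a, an RNA-binding protein that blocks let-7 maturation, at 404, 458 and 588 CPM in WT1, WT2 and WT3, Kit, the receptor for the survival signal KITL, at 286, 483 and 465 CPM, and the zinc finger gene Sall4, at 313, 423 and 478 CPM. Dppa3 (Stella), which protects maternal methylation marks after fertilization, was at 397, 319 and 431 CPM. Lin28a and Sall4 were lowest in WT1 and highest in WT3, and Kit was lowest in WT1. Per kb Dppa3 (459) followed Dazl most closely. Nanos3, needed for germ cell survival, was at 7.38 CPM on average, and its male-germ-line relative Nanos2 had no count in any of the 3 libraries; both were named after their values were seen.

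The spread within the identity list was uneven. A difference of more than 2-fold between the highest and the lowest library, among genes averaging 10 CPM or more, was found in 1707 of 9268 genes (18.4%). In the identity list it was found in 5 of 22 such members (22.7%): Tfap2c, Tcl1, Prdm1, Utf1 and Dppa2, the 5 being named after their values were seen. Tfap2c, a transcription factor of germ cell specification, was at 71.8, 146 and 215 CPM in WT1, WT2 and WT3 (144 ± 71.6 CPM, n = 3). Prdm1 (Blimp1), the repressor of the somatic programme in early germ cells, was at 43.7, 67.0 and 109.7 CPM, and Tcl1 was at 28.0, 50.5 and 81.1 CPM. All 5 had their lowest value in WT1 and their highest in WT3. The list as a whole was more mixed, with 12 of the 22 members highest in WT3 and 8 highest in WT1. Without WT3, 11 of the 22 were higher in WT1 than in WT2, beside 49.4% of all genes.

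Pluripotency genes were present at moderate levels and in most cases were lowest in WT1 and highest in WT3. Lin28a, Sall4, Utf1 and Dppa4, which had this order, and Pou5f1, which did not, are in the identity list too. Of 20 members, 16 reached 1 CPM in all 3 libraries, with a median of 13.2 ± 3.75 CPM per kb, close to that of detected protein-coding genes. Utf1, a chromatin-associated pluripotency factor, was at 158, 218 and 325 CPM in WT1, WT2 and WT3 (234 ± 84.8 CPM, n = 3). Sox2, the partner of OCT4, was at 159, 206 and 299.8 CPM (221 ± 71.8 CPM, n = 3). Tet1, the 5-methylcytosine dioxygenase mutated in the other groups, was at 91.4, 180.1 and 215 CPM (162 ± 63.8 CPM, n = 3). Each of the 3 was lowest in WT1 and highest in WT3, and so were Esrrb at 59.0, 104 and 196 CPM and Nanog at 42.9, 63.2 and 95.4 CPM, 2 core pluripotency factors named after their values were seen. Pou5f1 went the other way, highest in WT1. So did Zfp42 at 47.2, 32.0 and 27.6 CPM and Klf4 at 15.9, 8.82 and 12.7 CPM, both named after their values were seen. In the list, 11 of the 16 members with a mean of at least 10 CPM were highest in WT3 and 11 were lowest in WT1, against 3206 of 9268 genes that were highest in WT3 and 3585 that were lowest in WT1. Without WT3, 5 of the 16 were higher in WT1 than in WT2, beside 49.4% of all genes. More than 2-fold apart were 5 of 16 members (31.3%; Esrrb, Tet1, Gbx2, Nanog and Utf1), beside 18.4% over all genes; without WT3 it was 1 member and without WT1 0. Fgf4 had no count, and Tbx3, Nr0b1 and Tdgf1 were each counted in 1 library only.

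Genes of meiotic entry were detected almost in full. Of 12 members, 11 reached 1 CPM in all 3 libraries, with a median of 35.7 ± 11.8 CPM per kb. Rec8, a meiotic cohesin subunit, was at 534, 381 and 295 CPM in WT1, WT2 and WT3 (403 ± 121 CPM, n = 3). Meioc, which extends meiotic prophase by acting on RNA, was at 237, 137 and 136 CPM (170.1 ± 58.0 CPM, n = 3), and Gm4969, the gene of the STRA8 partner MEIOSIN, was at 91.5, 84.3 and 47.0 CPM (named after its values were seen). Rec8, Stra8 and Gm4969 had their lowest value in WT3. Sohlh2, a germ cell transcription factor, was at 246, 286 and 258 CPM and Taf4b, a gonadal subunit of the TFIID complex, at 119, 111 and 106 CPM, and both differed little between the libraries. WT1 was the highest library for 9 of the 10 members with a mean of at least 10 CPM and WT3 the lowest for 8, beside 3436 and 3026 of 9268 genes. Without WT3, 9 of the 10 were higher in WT1 than in WT2. Stra8 (3.95 times between highest and lowest) and the RNA helicase gene Ythdc2 (2.04 times, named after its values were seen) exceeded 2-fold. That is 2 of 10 (20%), near the 18.4% over all genes.

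Synaptonemal complex and axis genes spread more between the libraries than the lists described so far: the median SD of log2(CPM + 0.5) of members at 10 CPM or more was 0.53, against 0.43 for meiotic entry, 0.42 for pluripotency, 0.31 for identity and 0.30 over all genes. Of 23 members 21 were detected in all 3 libraries at 1 CPM, with a median of 24.1 ± 7.03 CPM per kb. The meiotic cohesin subunit Smc1b was at 1035, 692 and 643 CPM in WT1, WT2 and WT3 (790.2 ± 214 CPM, n = 3) and its partner Stag3 at 616, 649.9 and 628 CPM (632 ± 17.0 CPM, n = 3). Stag3 lay within a narrow range, while Smc1b was highest in WT1. The central element gene Syce2 was at 287, 217 and 228 CPM and the nuclear envelope gene Sun1, which tethers telomeres, at 148, 162 and 150.5 CPM. Sycp1, the transverse filament that joins the homologues, was at 370.2, 192 and 167 CPM (243 ± 111 CPM, n = 3). As for Sycp3, WT1 was high and the other libraries were low. More than 2-fold apart were 11 of 21 members (52.4%) beside 18.4% over all genes, and WT1 was the highest library in 17 of 21 beside 3436 of 9268 genes. These 11 were Sycp3, Sycp1, Sycp2, Syce3, Tex12 and 4930447C04Rik (Six6os1) of the synaptonemal complex, Hormad1 of the axis, the cohesin gene Rad21l, Ccdc36 (Iho1), which recruits the break machinery, and Terb1 and Majin of the telomere complex. Of the 11, Syce3, Rad21l and Majin averaged under 10 CPM in the other libraries and reached that level only through their highest library, as did 351 of the 1707 genes past 2-fold over all. That library was WT1 in each, so these genes are also among the 17 highest in WT1. Without WT3, 19 of the 21 members were higher in WT1 than in WT2.

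Rad21l, Syce3, Tex12 and Hormad1, named after their values were seen, show how far the libraries differed. Rad21l was at 53.3, 0.704 and 7.57 CPM. Syce3 was at 28.7, 7.18 and 6.01 CPM. Tex12 was at 41.1, 14.8 and 9.48 CPM. WT1 was the highest library in each, and for Syce3 the WT2 and WT3 values lay close together. Hormad1 was at 160.2, 73.5 and 90.6 CPM, with WT2 the lowest. Of the 21 axis members, 1 exceeded 2-fold without WT1 (Rad21l, at a mean of 4.14 CPM in WT2 and WT3), and 6 did without WT3. With fewer libraries a highest-to-lowest ratio can only be smaller.

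**Figure D2:**
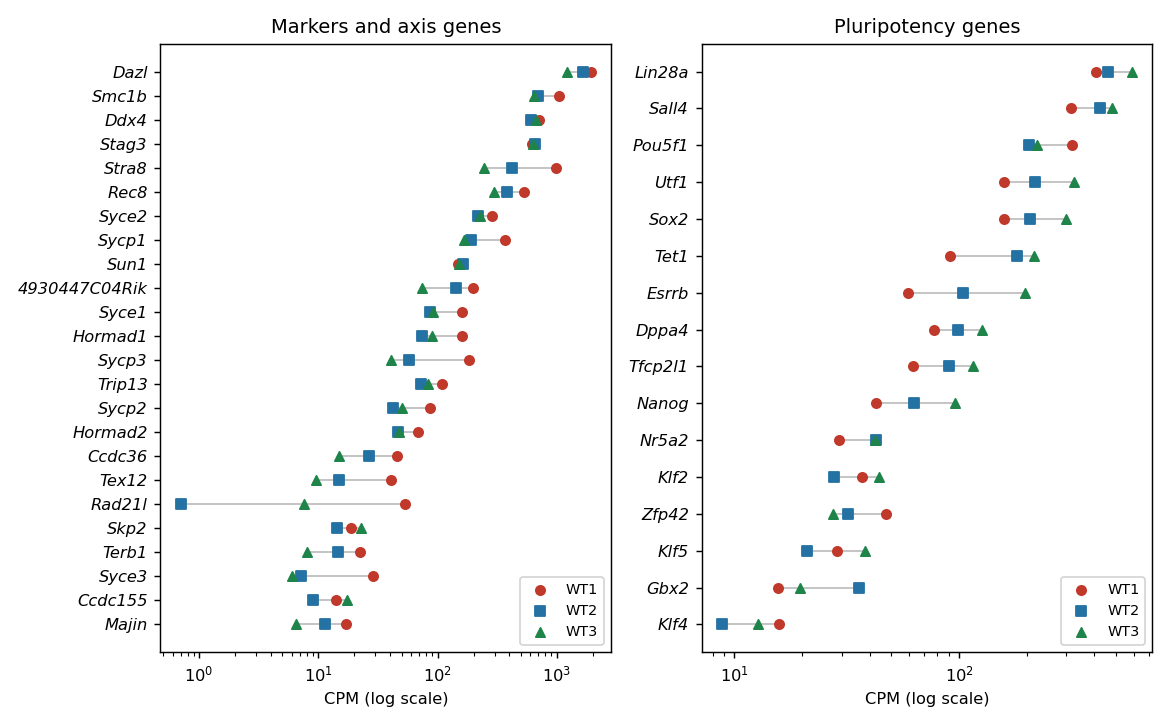
CPM in each WT library (log axes) for the germ cell markers with the axis members at a mean of at least 10 CPM (left) and for the pluripotency members at that level (right); grey lines join the lowest and highest library of a gene. WT1 is the highest library for 17 of 21 axis members, and WT3 for 11 of 16 pluripotency members.

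Promoters of the axis genes are shown because the members were high together in WT1. In the RefSeq table of assembly GRCm38.p6, 19 of the 23 axis genes had a promoter, and the 250 bases before the start were searched on both strands for CACGTG, the palindromic E-box core, and for TCCCGC, the core bound by E2F factors (GCGGGA on the other strand); the motifs do not overlap. CACGTG was found in 6 of 19 (31.6%), against 6.05% of all 27025 promoters and 9.40% of those of protein-coding genes at 10 CPM or more. TCCCGC was found in 9 of 19 (47.4%), against 16.9% and 33.8%. The windows printed end 20 bases before the start and run 5′ to 3′ on the strand of the gene, with both motifs in capitals. Sycp3 lies at chr10:88459337-88459566 (+), Sycp1 at chr3:102936121-102936350 (-), Hormad1 at chr3:95559427-95559656 (+) and Sun1, whose level differed little between the libraries, at chr5:139200387-139200616 (+).
Sycp3: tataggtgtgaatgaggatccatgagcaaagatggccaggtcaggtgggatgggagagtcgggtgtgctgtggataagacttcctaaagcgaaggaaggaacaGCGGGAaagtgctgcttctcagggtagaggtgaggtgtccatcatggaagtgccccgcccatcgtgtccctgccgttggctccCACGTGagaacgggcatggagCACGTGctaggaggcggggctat
Sycp1: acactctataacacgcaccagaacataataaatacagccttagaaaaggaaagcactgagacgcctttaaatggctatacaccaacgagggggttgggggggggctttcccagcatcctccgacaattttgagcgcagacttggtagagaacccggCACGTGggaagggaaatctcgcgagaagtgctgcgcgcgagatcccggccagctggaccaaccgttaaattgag
Hormad1: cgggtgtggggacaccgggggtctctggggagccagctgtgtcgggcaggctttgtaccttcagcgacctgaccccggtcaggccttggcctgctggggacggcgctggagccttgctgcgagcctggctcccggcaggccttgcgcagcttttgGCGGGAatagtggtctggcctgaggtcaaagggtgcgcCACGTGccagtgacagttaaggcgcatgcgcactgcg
Sun1: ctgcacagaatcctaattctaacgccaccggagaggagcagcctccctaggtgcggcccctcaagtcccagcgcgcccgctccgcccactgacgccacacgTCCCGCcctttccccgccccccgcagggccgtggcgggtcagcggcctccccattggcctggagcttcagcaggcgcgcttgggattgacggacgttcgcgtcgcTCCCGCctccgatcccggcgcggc

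Sycp3 held CACGTG 2 times and a copy of GCGGGA, Sycp1 held CACGTG alone, Hormad1 held 1 of each, and Sun1 held TCCCGC 2 times. Of the 6 axis members with CACGTG, all at a mean of at least 10 CPM, 5 exceeded 2-fold between the WT libraries and Stag3 did not. Of the 12 others with a promoter at that level, 4 exceeded 2-fold, among them Syce3 and Rad21l, which reached 10 CPM only through WT1. The list was searched because its members were high together in WT1, so these counts cannot show whether the motif goes with the spread. They were made after the values were seen, and a match of letters is a description, not a binding site. CACGTG was as frequent in 2 lists that varied less between the libraries, with 7 of 18 promoters of the piRNA list (38.9%) and 5 of 15 of the germ cell identity list (33.3%), where 75% and 60% of members were matched. In the recombination and meiotic entry lists, also high in WT1, it was found in 2 of 22 promoters (9.09%) and 2 of 9 (22.2%). There 75.9% and 75% of members were matched. In the 5 other lists searched with at least 80% of members matched, TCCCGC was found in 17 of 24 S phase promoters (70.8%), 12 of 26 of G2 and M phase (46.2%), 10 of 23 of DNA methylation (43.5%), 10 of 28 of chromatin repressors (35.7%) and 3 of 16 of pluripotency (18.8%), and CACGTG in 1, 2, 6, 4 and 2 of them. The ratio of observed to expected CpG was at least 0.6 in 77.6% of promoters of genes at 10 CPM or more and in 34.5% of all promoters.

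Recombination genes were nearly all detected; per kb of exon Dmc1 was at 47.8, Spo11 at 18.1 and Prdm9 at 3.39 CPM. All 29 members had a count in some WT library, 27 reached 1 CPM in all 3, and the median was 10.4 ± 4.54 CPM per kb. Dmc1, the meiotic strand exchange recombinase, was at 156, 82.5 and 80.3 CPM in WT1, WT2 and WT3 (106 ± 43.0 CPM, n = 3). Zcwpw1, a reader of the histone marks laid down by PRDM9, was at 299, 225 and 248 CPM, and Brca2 was at 223, 233 and 169.8 CPM. Tex15, a protein of recombination and transposon silencing, was at 269, 278 and 227 CPM. Of these 4 only Dmc1 came near a 2-fold range, with WT2 and WT3 alike and WT1 higher. Hsf2bp, a BRCA2 partner, was at 83.7, 68.8 and 50.5 CPM. Spo11, the enzyme that makes the breaks, was at 41.2, 23.9 and 30.4 CPM, and Prdm9, which places them, at 26.2, 7.60 and 4.06 CPM, both named after their values were seen. More than 2-fold apart were 6 of 23 members (26.1%), beside 18.4% over all genes. Of the 6, Gm960, Mei4, Mei1, Prdm9 and Ankrd31 reached 10 CPM only through their highest library, so this count is no measure of the list. WT1 was the highest library in 15 of 23, beside 3436 of 9268 genes. Mei1, Prdm9 and Ankrd31 are among these 15 and passed the level filter only through WT1, so this count has the same limit.

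The piRNA pathway and other transposon silencing genes were among the least variable classes of the germ line. Of 24 members, 19 were detected in all 3 libraries. Of the 18 with a mean of at least 10 CPM, 1 (5.56%), Morc1, was more than 2-fold apart, beside 18.4% over all genes. Tex19.1, a placental and germ cell protein that limits retrotransposons, was at 331, 319 and 294 CPM in WT1, WT2 and WT3. Fkbp6, a chaperone of piRNA loading, was at 331, 298 and 309 CPM, and Piwil2 (MILI), a piRNA-binding Argonaute, was at 247, 284 and 251 CPM. The RNA helicase gene Mov10l1 was at 245, 200.2 and 200.4 CPM. The 3 libraries were within 1.3-fold in each of these 4 genes. Gtsf1, below the level filter and named after its values were seen, departed from this with 25.1, 0.657 and 3.31 CPM. Of 19 genes of the male germ line list, 11 were detected in all 3 libraries, most of them shared with the piRNA list, while Nanos2, Dnmt3l and Gfra1 had no count. The signalling genes Lefty1 and Lefty2 of that list had 67 and 166 counts in WT3, the library with Y-linked counts, and 0 in WT1 and WT2 (named after their values were seen). Etv5, a transcription factor of that list, was at 43.2, 124 and 163 CPM, lowest in WT1.

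Genes of the later oocyte programme were mostly low. Of 28 members, 10 reached 1 CPM in all 3 libraries and 12 had no count in any WT library, among them the growth factors Gdf9 and Bmp15, the zona pellucida genes Zp1 and Zp2, the kinase gene Mos and the linker histone gene H1foo. A count of 0 allows up to 0.103, 0.141 and 0.119 CPM in WT1, WT2 and WT3. The 7 members with a mean of at least 10 CPM were Kit, Dppa3, Sohlh2 and Taf4b, which are in other lists too, the RNA-binding protein gene Ybx2 at 157, 164 and 186 CPM, and Ooep and Tle6 of the later subcortical complex at 13.9, 11.4 and 11.6 CPM and 16.4, 8.40 and 6.89 CPM. The oocyte transcription factor genes Figla at 14.4, 2.20 and 3.03 CPM and Nobox at 0, 1.97 and 1.87 CPM were low, Figla highest in WT1; both were named after their values were seen.

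DNA methylation genes were led by maintenance and repair factors. Trim28, a scaffold that silences transposons and keeps imprints, was at 1294, 1257 and 1546 CPM in WT1, WT2 and WT3 (1366 ± 157 CPM, n = 3). Dnmt1, the maintenance methyltransferase, was at 669.7, 824 and 836 CPM (776 ± 92.6 CPM, n = 3), and its partner Uhrf1 at 103, 113 and 78.2 CPM. Per kb of exon Dnmt1 was at 123, Uhrf1 at 26.7, and the de novo enzymes Dnmt3a and Dnmt3b at 10.7 and 3.32, with no count for their cofactor Dnmt3l. Among the TET dioxygenases Tet1 was at 11.3, Tet2 at 3.87 and Tet3 at 1.34 CPM per kb, so Tet1 ranked first. Uhrf1 and the DNMT3 and other TET genes were named after their values were seen. The base excision repair genes Parp1 at 839, 1026 and 1079 CPM and Apex1 at 324, 218 and 287 CPM stood at 253 and 223 CPM per kb, and the thymine glycosylase gene Tdg, at 11.8, 15.9 and 11.7 CPM, stood at 3.72 CPM per kb (named after its values were seen). Of 22 members with a mean of at least 10 CPM, 3 (13.6%) exceeded 2-fold, Tet1, Dnmt3b and Smug1, beside 18.4% over all genes. Dnmt3b reached 10 CPM only through WT2, with a mean of 9.78 CPM in the other libraries.

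All 29 chromatin repressor genes were detected in all 3 libraries, with a median of 47.8 ± 5.06 CPM per kb. Rbbp7 and Rbbp4, histone chaperones shared by several repressor complexes, were at 641, 459.9 and 519 CPM and at 546, 460.4 and 445 CPM, and the deacetylase gene Hdac2 was at 602, 428 and 519.5 CPM. Of the Polycomb repressive complex 2, Jarid2 was at 263, 421 and 440.0 CPM and Phf19 at 235, 389.8 and 372 CPM, both lowest in WT1. The corepressor gene Sin3a was at 293, 353 and 394 CPM. One member, E2f6 (32.8, 25.8 and 52.9 CPM), was more than 2-fold apart, which is 3.45% of the list beside 18.4% over all genes.

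Imprinted genes were mixed. Of the paternally expressed list, 16 of 26 were detected in all 3 libraries and 4 (Rtl1, Snurf, Snrpn and Airn) had no count; Snurf and Snrpn share a transcript, and the sources used here do not say how such overlapping genes were counted. Peg3, a zinc finger gene, was at 198, 341 and 510.2 CPM in WT1, WT2 and WT3 (350.0 ± 156 CPM, n = 3), Plagl1 at 58.3, 159 and 140.5 CPM, Slc38a4 at 86.7, 124 and 141 CPM and Igf2 at 93.9, 103 and 81.9 CPM. Peg3 and Plagl1 were lowest in WT1, and Igf2 lay within 1.3-fold. Of the maternally expressed list, 17 of 25 were detected. The growth receptor gene Igf2r was at 307, 436 and 411 CPM, the non-coding RNA gene H19 at 148, 332 and 253 CPM and Phlda2, a placental growth suppressor, at 173, 236 and 273 CPM. Past 2-fold were 5 of 12 paternally expressed members (41.7%) and 2 of 16 maternally expressed ones (12.5%), beside 18.4% over all genes. Of the 5, Impact and Zrsr1 averaged 9.53 and 7.47 CPM in the other libraries and reached 10 CPM only through their highest library. Allelic origin was not measured.

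Among the signals that act on meiotic entry, genes of retinoic acid receptors were detected in part, and the aldehyde dehydrogenase genes of its synthesis were at or near 0. Rara was at 40.4, 45.7 and 57.1 CPM in WT1, WT2 and WT3, Rxrb at 82.6, 67.0 and 74.5 CPM and Rxra at 43.9, 52.5 and 43.7 CPM. The binding proteins Crabp1 and Crabp2 were at 88.2, 64.5 and 55.4 CPM and at 55.7, 25.0 and 37.6 CPM. Aldh1a1, Aldh1a2 and Aldh1a3, which make retinoic acid, were at 2.68 CPM or less in every library, and of the enzymes that destroy it Cyp26b1 was at 6.70, 5.96 and 3.03 CPM and Cyp26a1 had no count. The retinol dehydrogenase gene Rdh10, of the step before, was at 35.7, 16.1 and 25.9 CPM, and of the other receptors Rarb was at 6.22, 0.938 and 0 CPM and Rxrg had no count; these 8 were named after their values were seen. More than 2-fold apart were 4 of 9 members (44.4%), Crabp2, Rdh10, Rdh11 and Rarg, beside 18.4% over all genes. Of the 4, Rdh11 and Rarg reached 10 CPM only through WT1. Of the BMP and TGF-beta list, 22 of 27 were detected in all 3 libraries. The transcription factor gene Gata2 was at 281, 262 and 309 CPM, the receptor gene Bmpr1a at 211, 204 and 228 CPM and the target Id3 at 166, 150.3 and 164 CPM, all within 1.2-fold. Smad2, Tgfbr1 and Acvr2b were at 165, 131 and 124 CPM on average. Past 2-fold were 4 of 22 (18.2%), near the share over all genes.

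Cell cycle genes were abundant in all 3 libraries. All 30 S phase genes were detected, with a median of 79.4 ± 4.41 CPM per kb, and all 30 G2 and M phase genes, with a median of 54.7 ± 14.52. Hells, a chromatin remodeller, was at 1164, 999.5 and 933 CPM in WT1, WT2 and WT3, the replicative helicase subunit Mcm6 at 609, 686 and 739.7 CPM and the single-strand binding protein gene Rpa2 at 599.9, 519 and 493 CPM. Mcm3, Mcm5 and Mcm7 averaged 629, 519.7 and 506 CPM. S phase genes differed little, with 1 of 29 past 2-fold (3.45%), beside 18.4% over all genes. Top2a, the topoisomerase of condensing chromosomes, was at 819.9, 969.6 and 1169 CPM, the kinetochore gene Cenpf at 411, 679 and 869.8 CPM and the proliferation antigen gene Mki67 at 337, 570.3 and 762 CPM. Bub1, Cdc20 and Ccnb2 averaged 350.4, 332 and 293 CPM. WT3 was the highest library in 24 of 30 G2 and M phase genes, beside 3206 of 9268 genes. Past 2-fold were 3 of 30 (10%), beside 18.4% over all genes. These were Cenpf, Mki67 and Aurkb, each lowest in WT1. Without WT3, 9 of the 30 were higher in WT1 than in WT2.

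Stress-related lists differed by library. Trp53, the gene of p53, was at 84.2, 88.2 and 183 CPM in WT1, WT2 and WT3 (118 ± 55.9 CPM, n = 3), with WT3 more than 2-fold above both others. Its targets Bbc3 at 10.4, 11.8 and 24.5 CPM and Eda2r at 4.71, 5.58 and 28.6 CPM, named after their values were seen, had the same pattern, Eda2r reaching a mean of 10 CPM only through WT3. Past 2-fold were 4 of 23 members (17.4%), near the 18.4% over all genes, and without WT3 the values of these 3 in WT1 and WT2 lay within 1.2-fold. Its targets Bax at 133, 105 and 154 CPM, Mdm2 at 158, 170.0 and 138 CPM and Cdkn1a at 47.0, 48.5 and 50 CPM did not (Cdkn1a named after its values were seen), and Trp53inp1, Mcl1 and Gtse1 averaged 168, 162 and 121 CPM. The immediate early and stress list did not follow one library: of its 15 members with a mean of at least 10 CPM, 8 were highest in WT3 and 6 in WT1. Fos was at 70.6, 35.1 and 22.9 CPM, Jun at 41.1, 9.71 and 10.9 CPM and Egr1 at 41.4, 6.14 and 11.9 CPM. These 3 immediate early genes, of the class that responds fast to signals, were highest in WT1; Jun and Egr1 were named after their values were seen, and Egr1 reached a mean of 10 CPM only through WT1. Jund was at 391, 226 and 191 CPM, also highest in WT1. The immediate early gene Ier2 at 65.8, 54.8 and 74.6 CPM, the chaperone genes Dnajb1 at 98.0, 82.3 and 126 CPM and Hsph1 at 281, 339.6 and 352 CPM and the stress response factor gene Atf4 at 105, 112 and 133 CPM were highest in WT3. Past 2-fold were 5 of 15 (33.3%), beside 18.4% over all genes.

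Energy metabolism genes split by pathway. All 46 nuclear genes of oxidative phosphorylation were detected, with a median of 139 ± 30.7 CPM per kb, and WT1 was the highest library in 38 of the 45 with a mean of at least 10 CPM, beside 3436 of 9268 genes. The median log2 deviation of WT1 was 0.35, and 0.11 relative to genes of like exon length. Cox4i1 was at 1169, 718 and 653 CPM in WT1, WT2 and WT3, Cox5a at 472, 340.1 and 371 CPM and Uqcrc1 at 421, 309 and 352 CPM, while Atp5a1 at 846, 737 and 868 CPM, Atp5b at 2021, 2068 and 2285 CPM and Sdha at 481, 466 and 508 CPM varied less. Past 2-fold were 7 of 45 (15.6%), below the 18.4% over all genes; they were subunits of complex I, which supplies 22 of the 46 listed genes (Ndufa1, Ndufa2, Ndufa3, Ndufa4, Ndufa5, Ndufb10 and Ndufv2). Glycolysis genes had a median of 18.6 ± 2.27 CPM per kb. Pkm, the last enzyme of the pathway, was at 759, 956 and 1078 CPM, Gpi1 at 239, 332 and 332 CPM, Ldhb at 166, 171 and 228 CPM and Gapdh at 176, 139 and 180.3 CPM. The glucose transporter gene Slc2a3 was at 64.3, 159 and 226 CPM and the phosphofructokinase gene Pfkp at 23.8, 61.9 and 110.1 CPM, both lowest in WT1 and highest in WT3. WT3 was the highest library in 10 of 16 members, beside 3206 of 9268 genes, and without it 5 of 16 were higher in WT1 than in WT2. Past 2-fold were 5 of 16 (31.3%), beside 18.4% over all genes.

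The X chromosome was somewhat below the autosomes. The median level of its 387 detected protein-coding genes was 0.907, 0.804 and 0.827 of that of 10130 autosomal genes in WT1, WT2 and WT3, per kb of exon (0.846 ± 0.0539). It ranked 19 of 20 chromosomes by that median, between chromosomes 13 and 1, and 46.3% of its 847 listed protein-coding genes were detected. Xist, the RNA that coats an inactive X chromosome, was at 13.6, 2.44 and 6.21 CPM in WT1, WT2 and WT3, its activator Rlim at 155, 210.4 and 160.1 CPM and Ftx at 10.5, 22 and 15.5 CPM. Xist was thus highest in WT1 and below the lower quartile of genes per kb (0.414), and its antisense gene Tsix had no count; reads of the pair could not be separated if strand was ignored, which the sources used here do not say.

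Markers of other gonadal cells were low. Summed over each list, supporting cell genes of the ovary came to 69.7, 30.1 and 40.1 CPM in WT1, WT2 and WT3, of which Irx3 made up 26.7, 17.9 and 19.8 CPM. Foxl2, their defining factor, and Runx1 had no count. Sertoli and Leydig genes summed to 6.94, 10.3 and 5.50 CPM, with no count for Sox9 and with Amh (43 counts) and Fgf9 (19 counts) counted in WT3 alone, both named after their values were seen, and gonad stroma genes to 26.8, 5.44 and 9.92 CPM, of which Nr2f1 was 20.2, 1.92 and 0 CPM. Endothelial genes summed to 14.6, 43.8 and 44.3 CPM, led by Eng at 6.80, 20.3 and 20.5 CPM and Egfl7 at 0.103, 7.55 and 8.68 CPM, with no count for Kdr and Emcn. Mesonephros genes summed to 45.6, 72.1 and 70.2 CPM, mostly Krt18 at 36.3, 50.4 and 49.4 CPM. Blood cell genes summed to 70.9, 6.52 and 5.18 CPM. Of these 19 blood genes 0 reached 1 CPM in all 3 libraries: the complement gene C1qb (14.7, 0 and 0 CPM), the haemoglobin gene Hbb-bs (12.8, 0 and 0 CPM) and the macrophage receptor gene Csf1r (8.59, 0 and 0 CPM), named after their values were seen, were counted in WT1 alone, and Ptprc had no count. WT1 had the highest sum for the blood, stroma and supporting cell lists and the lowest for endothelium and mesonephros; their part in the differences between the libraries was not tested.

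The spread between the libraries was large beside counting error and declined with level. Among 2224 genes of 1 to 3 CPM the median coefficient of variation was 93.4%, where counting error alone gives 15.3%, and among 56 genes of at least 1000 CPM it was 12% against 0.533%. The median SD of log2(CPM + 0.5) was 0.30 over 9268 genes averaging 10 CPM or more, and 0.20 without WT1. The biological coefficient of variation from edgeR had a median of 0.40 over the 16166 genes kept for scaling, low ones included, and a common value of 0.87. Its median was 0.39 at 10 to 30 CPM and 0.18 at 1000 CPM or more. Low genes were lost unevenly: of 3170 genes of 1 to 5 CPM, 14.8%, 16.3% and 22.3% were at 0 in WT1, WT2 and WT3. Even at higher counts, 571 of 12220 genes with at least 100 counts in some WT library were at 0 in another (155 of them in WT1, 244 in WT2 and 323 in WT3), so absence from a single library of this depth does not show absence from the cells.

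**Figure D3:**
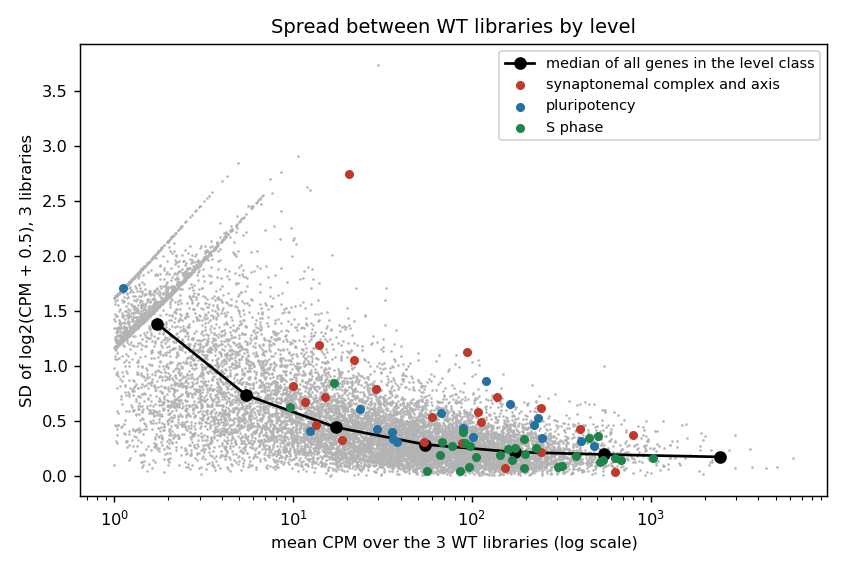
SD of log2(CPM + 0.5) over the 3 WT libraries against mean CPM (log axis) for genes at 1 CPM or more; black points are medians of level classes, and coloured points are members of 3 lists. The class median falls from 1.39 at 1 to 3 CPM to 0.17 at 1000 CPM or more; axis members lie mostly above it and S phase members near or below it.

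By pairs, WT2 and WT3 were the closest. A difference of more than 2-fold separated 5.93% of the 9268 genes between WT2 and WT3, 8.0% between WT1 and WT2 and 11.9% between WT1 and WT3. The chi-square per degree of freedom was 60.9, 121 and 165 in the same order, so no pair was the same counts deposited again. WT1 was more than 2-fold above both others in 181 genes (1.95%) and below both in 240 (2.59%). The corresponding counts were 37 (0.399%) and 76 (0.82%) for WT2 and 76 (0.82%) and 221 (2.38%) for WT3. With the 10 CPM filter applied to the libraries kept, the total of genes past 2-fold was 540 without WT1, 1160 without WT2 and 802 without WT3, against 1707 with all 3 libraries.

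Among genes averaging 50 CPM or more the widest ranges were those of Pfkp (4.62 times), Sycp3 (4.50), the germ cell transcription factor subunit Taf7l (4.34), the junction protein gene Cgnl1 (4.33) and the proteasome subunit gene Psmb5 (4.16), followed by Usf3, Stra8, the lipid carrier gene Apoe, the germ cell surface gene Tex101 and Arid5b. Taf7l was at 196, 84.1 and 45.3 CPM in WT1, WT2 and WT3 and Tex101 at 155, 60.4 and 40.1 CPM, so that with Sycp3 and Stra8, 4 of the 10 are germ-line genes highest in WT1. Among the narrowest were Smek1 at 246, 247 and 246 CPM, Zfp346, Dis3l, Uqcrfs1, Cul5, Lancl1, Psmd2 at 931, 922 and 920.2 CPM, Igf2bp3 and Arf1, all within 1.013-fold. Farthest above both others in WT1, after Sycp3, were Haus4 (188, 58.1 and 66.2 CPM), Cited1, Tex101 and Atp6v1d. Among the farthest below in WT1 were Cgnl1 (29, 89.4 and 126 CPM), Usf3, Etv5 and Ston2. WT2 was farthest above in Rnpepl1, Ptprg, Zfp777, Dpp8 and Stam2, none of them by 2-fold, and farthest below in Apoe (149, 37.9 and 111 CPM), Psmb5, Syf2, Kif5b and Mrpl51. WT3 was farthest above in Cndp2, Vasp (33.5, 60.2 and 126 CPM), Trp53, Srm and Fbxo9. It was farthest below in Bivm, the testis bromodomain gene Brdt (80.3, 77.8 and 35.1 CPM), Pam, Syngr2 and Ndufa1.

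Seen by class, WT1 and WT3 stood on opposite sides. As the median over members of the log2 deviation from each gene's own mean, axis genes stood at 0.60, -0.25 and -0.24 in WT1, WT2 and WT3, meiotic entry genes at 0.40, 0.03 and -0.39 and recombination genes at 0.27, -0.18 and -0.18. The members used averaged 10 CPM or more. Syce3, Rad21l and Majin of the axis list and Mei1, Prdm9 and Ankrd31 of the recombination list did so only through WT1. For axis genes averaging 50 CPM or more, WT1 stood at 0.45. Pluripotency genes stood at -0.35, -0.04 and 0.33, glycolysis genes at -0.22, -0.03 and 0.21 and G2 and M phase genes at -0.19, 0.00 and 0.22. The median over all 9268 genes was between 0.00 and 0.01 in each library. WT1 was thus high in the meiotic classes and low in the pluripotency and G2 and M phase classes, and WT3 was the reverse, with WT2 between them in these 6 classes except axis and recombination. The axis list also had a median SD of log2 CPM above that of all genes within each mutant group. It was 0.28 against 0.25 in HxD, 0.34 against 0.23 in V and 0.51 against 0.29 in KO, with 0.53 against 0.30 in WT. The other meiotic lists were above all genes too. In HxD, V and KO, recombination genes were at 0.38, 0.45 and 0.38 and meiotic entry genes at 0.28, 0.45 and 0.48. These comparisons are not matched for level, and genes were chosen by their WT mean in every group. In WT the median SD was 0.44 at 10 to 30 CPM, 0.28 at 30 to 100 CPM and 0.22 at 100 to 300 CPM. The median WT level of all listed members was 59.6 CPM for axis, 29.4 CPM for recombination and 102 CPM for meiotic entry. Differences between groups were not tested.

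**Figure D4:**
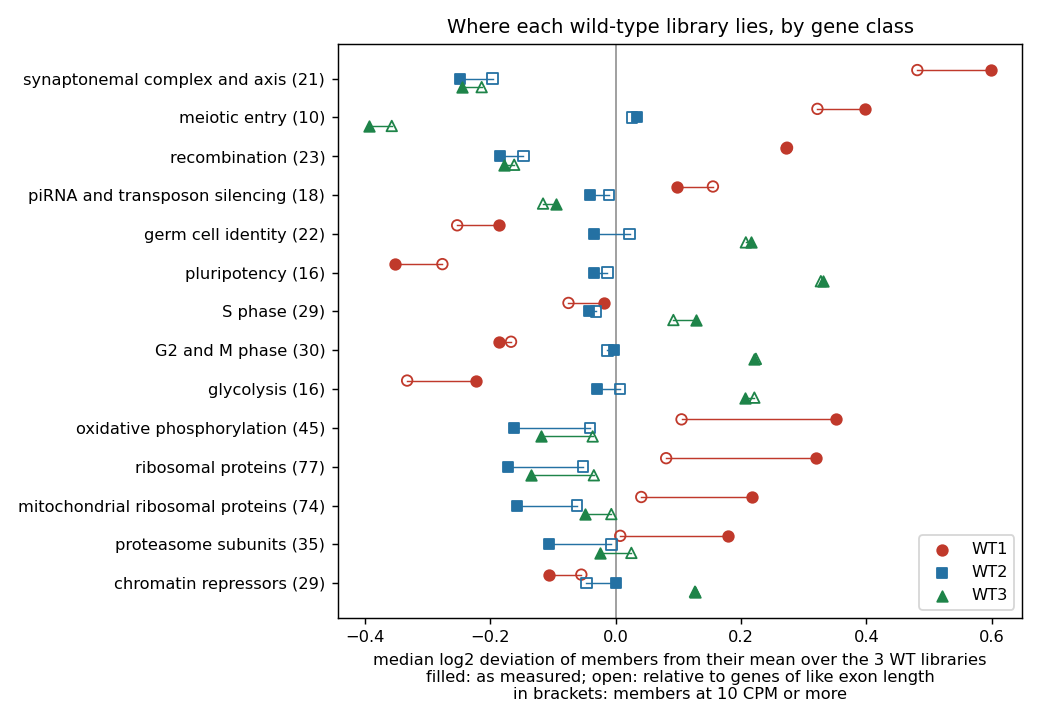
Median log2 deviation of the members of 14 gene classes from their own mean, for WT1 (circles), WT2 (squares) and WT3 (triangles); filled symbols are as measured, open symbols relative to genes of like exon length, and the number of members is in brackets. WT1 lies at 0.60 for axis genes and at -0.35 for pluripotency genes, and for ribosomal proteins it moves from 0.32 to 0.08 once length is matched.

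Exon length moved with the same differences. In 5 equal groups of genes from short to long, the median deviation of WT1 was 0.20, 0.05, -0.02, -0.08 and -0.15, and that of WT2 -0.11, -0.03, 0.01, 0.05 and 0.11. WT1 was thus high in short and low in long transcripts. The median exon length was 2141 bases for genes with WT1 above both others, 4371 for those with WT1 below both, and 3507 over all genes. Relative to genes of like exon length, the WT1 deviation was 0.11 in place of 0.35 for oxidative phosphorylation, 0.08 in place of 0.32 for ribosomal proteins and 0.01 in place of 0.18 for proteasome subunits. It was 0.48 in place of 0.60 for axis genes, 0.32 in place of 0.40 for meiotic entry genes, 0.27 in both cases for recombination genes and -0.28 in place of -0.35 for pluripotency genes, so these kept most of their size. Transcript GC content had a smaller range, with WT1 medians between -0.03 and 0.05 over 5 equal groups.

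**Figure D5:**
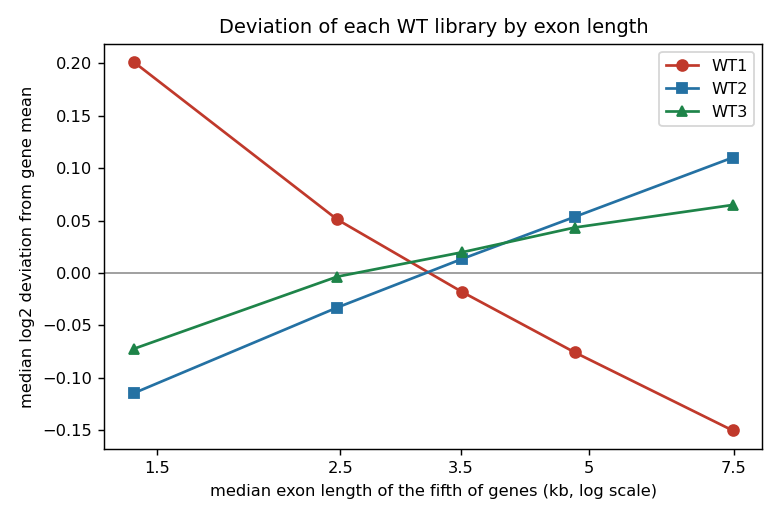
Median log2 deviation from the gene mean in 5 equal groups of genes by exon length (kb, log axis), for each WT library. WT1 goes from 0.20 in the shortest to -0.15 in the longest group, WT2 from -0.11 to 0.11 and WT3 from -0.07 to 0.06.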

How the data were processed

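The authors deposited 1 table of whole-number read counts for 35976 gene symbols and 12 libraries, not normalized. The submitters' processing notes name featureCounts 2.0.3, STAR 2.7.10b, SAMtools 1.9, Trim Galore 0.6.7 and FastQC, and the builds GRCm39 and mm10 without a role. The annotation, the strand setting and the handling of multiply mapped reads were not given in the sources used here. Overlapping genes and near-identical copies are therefore uncertain. Groups came from the sample titles. The WT libraries, whose totals are in the report, were scaled to CPM with TMM factors from all 12 libraries (edgeR 4.0.16, R 4.3.3, filterByExpr, 16166 genes kept); no molecular identifiers are described, so floors of 3 counts cover counting error only. The spread was taken as the SD of log2(CPM + 0.5) and as edgeR's biological coefficient of variation over the 3 WT libraries, tested on simulated data. Exon length is the union of GENCODE M21 exons and was found for 96.9% of genes at 10 CPM or more; GRCm38 served for lengths, promoters and chromosome membership only. DESeq2 1.42.0 size factors, total counts, other thresholds, leaving out each library and, added after seeing the data, comparison with genes of like length or GC were alternatives.

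Members and the 29 gene lists were chosen with earlier results of these data known; of 631 list entries 627 were matched, some under older symbols, and lists share members. Named genes are the 5 markers, the 15 nuclear genes highest per kb (ribosomal proteins left out), the 6 highest of each list by mean CPM, markers of other cell types at 5 CPM or more, and, among genes averaging 50 CPM or more, the 10 widest and 10 narrowest ranges and the 5 farthest above and below in each library; others are said to be named after their values were seen, and members listed as past 2-fold are named for completeness. A few genes that this rule names are not reported here.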

Additional observations from a re-analysis of the deposited data

How the results depend on the processing

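No paired analysis was possible because 1 group was described and no test was made. Of 185 values recomputed under 20 alternatives, 165 stayed within the spread (counts within 1.5 times) and none changed sign among deviations; no alternative scaling (TMM over the WT libraries, DESeq2 size factors or total counts) moved a value past that limit. Leaving out each library in turn, the median SD of log2 CPM was 0.20 to 0.28, the genes past 2-fold numbered 540 to 1160, the axis members past it 0 to 9 and the pluripotency members 0 to 4, which fewer libraries lower by construction. These counts apply the 10 CPM filter to the libraries kept, which drops Rad21l when WT1 is left out. The deviation of WT1, computed without WT2 or without WT3, was 0.30 to 0.41 for axis genes, -0.29 to -0.20 for pluripotency genes, 0.23 to 0.24 for oxidative phosphorylation and -0.21 to -0.10 for G2 and M phase genes. The number of genes past 2-fold was 2575 at a mean of at least 5 CPM and 331 at 50 CPM, where 5 axis members remained in the count; past 1.5-fold it was 4491 and past 4-fold 197. Without a filter beyond 1 count the median SD was 0.47. The median log2 level of the oocyte list, -0.12, was -1.50 with a pseudocount of 0.1 and 1.35 with one of 2, since most members are near 0. Relative to genes of like length, an alternative chosen after seeing the data, the WT1 deviation of oxidative phosphorylation was 0.11. Of genes averaging 1 to 5 CPM up to 22.3% were at 0 in a library. Thinning to the lowest total left 11445 detected genes against 11454. Such thinning only lowers WT1 and WT3 to the total of WT2, so it cannot show how depth limits the detection of low genes. That effect of depth was not tested. All spreads are limited by having 3 libraries from 1 stage, and the cause of the differences was not tested.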

Other observations

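Gene families outside the report's lists show which parts of the genome these germ cells used. All 8 subunits of the CCT chaperonin, which folds actin and tubulin, were abundant, with a median of 495 ± 29.9 CPM per kb, and none exceeded 2-fold between the WT libraries; Cct2 was at 1572, 1373 and 1376 CPM in WT1, WT2 and WT3 and Cct4, the widest, at 1083, 894 and 789 CPM. Detected at 1 CPM in all 3 libraries were 36 of 39 proteasome subunits, 76 of 77 mitochondrial ribosomal proteins, 49 of 52 DEAD and DEAH box helicases, 32 of 37 kinesins and 302 of 367 Zfp zinc finger genes. Of 332 solute carriers 166 were detected, and 40 of the 120 with a mean of at least 10 CPM (33.3%) exceeded 2-fold, beside 18.4% over all genes. Of the X-linked Rhox homeobox cluster 13 of 31 were detected, 4 with a mean of at least 10 CPM.

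Several families typical of differentiated somatic cells were largely uncounted. Of 1097 olfactory receptors 1087 had no count in any WT library and 1 reached 1 CPM in all 3. The corresponding counts at 1 CPM were 2 of 39 Hox genes, 2 of 49 keratins, 9 of 92 cytochrome P450 genes and 1 of 33 interleukins. Collagens differed, with 18 of 44 at 1 CPM in all 3 libraries and a sum of 607, 822 and 849 CPM in WT1, WT2 and WT3. Replication-dependent histone genes, whose mRNAs lack a poly(A) tail, were at 1 CPM in all 3 libraries for 6 of 68, in libraries made from oligo d(T)-selected mRNA.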
